A study of Caenorhabditis elegans with 2 samples.

Results

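The homeobox and Hox genes of Caenorhabditis elegans were examined in ChIP-seq of the zinc finger protein F13H6.1, the product of bcl-11, the worm gene named after the mammalian BCL11 proteins. The set was chosen by gene symbol: protein-coding genes whose symbol starts with ceh-, together with 17 homeobox genes named for their phenotype or class, among them the Hox genes lin-39, mab-5, egl-5, nob-1 and php-3. It holds 80 of 19985 protein-coding genes in the Ensembl annotation of WBcel235. The animals were hermaphrodite late embryos of strain OP471, with the genotype unc-119(tm4063) III; wgIs471, taken 5 hours after egg bleaching. Their transgene makes F13H6.1 with GFP-FLAG at its C terminus, and an antibody against GFP pulled it down. All samples belong to this 1 group, with 2 biological replicates and no comparison of conditions. Whole animals were used, so the cell type behind a signal is not known, and the labels give neither the promoter nor the copy number of the transgene.

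Homeobox genes encode transcription factors that bind DNA through the homeodomain, a fold of helices of which the third lies in the major groove. Hox genes assign identity along the body axis, TALE-class proteins such as Pbx act as their cofactors, and LIM, POU and paired-type factors are known in the worm as selectors of neuron identity. Several, the Hox genes among them, are controlled through upstream and intronic DNA.

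The label fitted the genes. The homeodomain signature of the third helix was present in the translated coding sequence of 59 of the 80 homeobox genes (73.8%), against 157 of 19973 nuclear protein-coding genes (0.786%). RefSeq product names call 74 of the 80 a homeobox or homeodomain protein. The 2 with neither were ceh-48 and ceh-49, which RefSeq names as members of the One cut family, a family of homeodomain proteins. Textbook classes could be given to 58 of the 80 genes, and 22 were not placed.

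The data were lists of enriched regions on ce11, each with a summit and a signal from the authors' peak caller whose scale is not stated, so signals serve for rank within 1 list. The permissive lists held 21824 regions for the pooled reads, 19517 for replicate 1 and 21972 for replicate 2. The 1065 pooled regions of highest signal passed the authors' reproducibility threshold and are called sites. A gene was given a region when the summit lay in its promoter window, which runs 1000 bp upstream and 500 bp downstream from each annotated start, or inside the gene. Sequencing depth is unknown from the lists, and control libraries were not analysed here.

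No homeobox gene held a site. In promoter windows, 0 of 80 homeobox genes had one, with a 95% Wilson interval up to 4.58%, against 788 protein-coding genes, 3.94%. Inside the gene the counts were 0 of 80 homeobox genes and 284 protein-coding genes, 1.42%. At the share of all genes, 3.15 of 80 homeobox genes would have had a site in the window. Where 3 counts are taken as the limit, a count of 0 of 80 allows a share of up to 3.75%. The window share of all genes lies between these 2 limits, so with 80 genes the counts do not settle whether homeobox windows hold fewer sites. Intervals for genes cover counting error over genes only. Intervals for regions, given below, cover counting error over regions and treat overlapping regions, and regions of the same gene, as independent. Another 21 homeobox genes outside the symbol rule, including pal-1, the caudal gene, and unc-62, the Meis gene, also had 0 sites. In either place, 0 of 101 homeobox genes therefore had one. The share of all protein-coding genes with a site in either place was not counted. The count of 0 of 101 therefore does not settle whether homeobox genes hold fewer sites. For comparison, sites stood in the windows of 12 of 269 nuclear hormone receptor genes (4.46%) and 2 of 25 bHLH genes named hlh- (8%). These differences between families were not tested.

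Below the threshold the homeobox genes held many regions. A pooled permissive region lay in the window of 35 of 80 homeobox genes (43.8%, 33.4 to 54.7), against 36.5% of protein-coding genes. It lay inside 41 of 80 homeobox genes (51.2%, 40.5 to 61.9), against 34.2% of protein-coding genes. In either place there was one for 51 of 80 homeobox genes (63.8%, 52.8 to 73.4), against 48.8% of protein-coding genes. Both kinds were present at 25 homeobox genes, 10 had a region in the window alone, 16 inside alone, and 29 had neither. The window share lies close to that of all genes, while the interval for the inside share lies above it. Regions from the stronger 10912 of the pooled list stood in 23 homeobox windows (28.8%), against 22.5% of protein-coding genes.

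The plot of genes reached as weaker regions are added shows where in the list the homeobox genes come in. With the 1500 highest regions, 3 homeobox windows were reached (3.75%), against 5.34% of protein-coding genes. With 2130 regions, 2 times the number of sites, there were 5 (6.25%), against 6.91% of protein-coding genes. Inside the gene, 3 homeobox genes were reached at that number (3.75%), against 3.10% of protein-coding genes. With 5000 regions it was 14 (17.5%), against 8.71%, and with 10000 regions 27 (33.8%), against 17.6%.

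**Figure D1:**
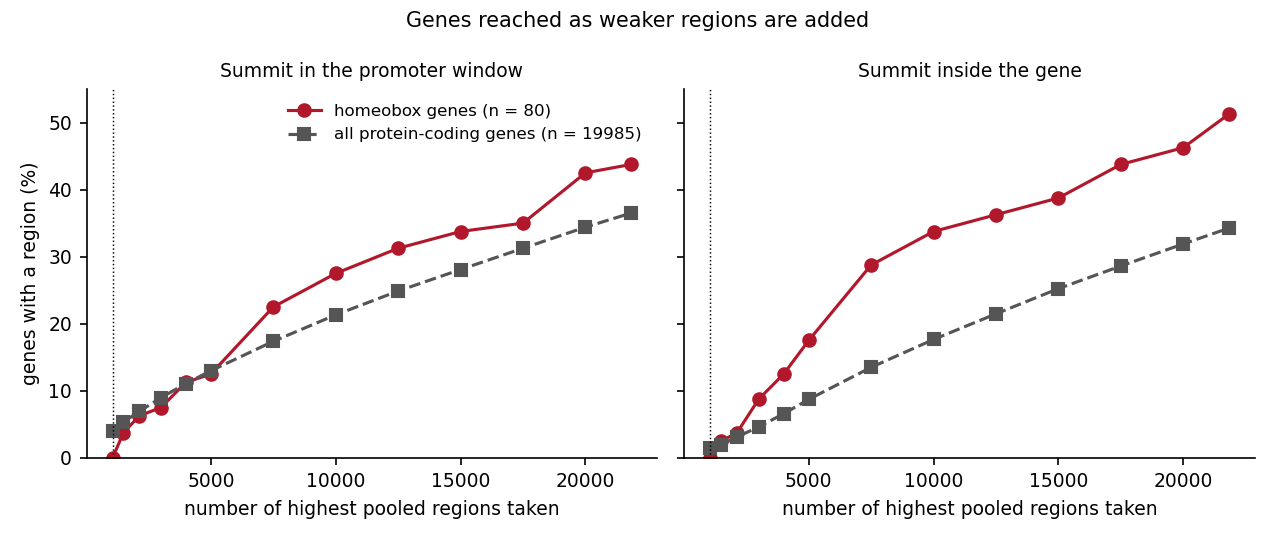
Share of genes (%, vertical axis) with a region in the promoter window (left) or inside the gene (right) as the number of highest pooled regions taken grows (horizontal axis), for the 80 homeobox genes (red circles) and all 19985 protein-coding genes (grey squares). The dotted line marks the 1065 sites, where the homeobox genes are at 0, and the curves inside the gene separate at 5000 and 10000 regions.

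Gene size went with the share inside the gene. The median length was 3277 bp for homeobox genes and 2026 bp for all protein-coding genes. Counted by length, homeobox genes held 20.4 regions per 100 kb of gene and all protein-coding genes 20.8. In promoter windows the densities were 28.6 per 100 kb for homeobox genes and 27.8 for all. Within size classes a region lay inside 7 of 24 homeobox genes of at most 2000 bp (29.2%, against 18.5% of all genes of that size) and 20 of 38 between 2000 and 5000 bp (52.6%, against 38.6%). Above 5000 bp it was 14 of 18 homeobox genes (77.8%), against 73.1% of all genes of that size. For a region in either place the shares by rising size were 45.8%, 65.8% and 83.3% of homeobox genes, against 34.9%, 53.5% and 81.5% of all genes. The part of length in the higher share was not tested further.

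The best-ranked homeobox regions stopped short of the threshold. The highest homeobox region, at ceh-38, had a signal of 76.2, against 82.13 for the lowest site and 82.12 for the pooled region just below it. That is 92.8% of the lowest site's signal, with 174 other regions in between. Only 6 homeobox regions were among the 2130 highest. Where a homeobox gene had a region in its window, the median of its highest signal was 36.2 (95% interval 31.9 to 40.9, n = 35), and that of all protein-coding genes with one was 34.8 (n = 7293). Homeobox medians inside the gene were 36.3 (33.1 to 41.4, n = 41), against 32.4 for all protein-coding genes (n = 6844). The upper quartile in the window was 45.2 for homeobox genes and 50.9 for all protein-coding genes. Inside the gene it was 45.2 for homeobox genes and 41.9 for all. The highest window signals were 76.2 for homeobox genes and 1222.7 for all protein-coding genes. These maxima come from 35 and 7293 genes, and no homeobox gene held a site. They therefore cannot show whether the upper end differs.

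The region at ceh-38, a One cut gene of the CUT class that acts broadly in neurons, had rank 1240 in the pooled list. It lay on chrII:6951417-6951872, with its summit in a UTR 5 bp downstream of a ceh-38 start and also in the window of the neighbour malt-1. Its signal was 43.9 in replicate 1, rank 923, and 31.99 in replicate 2, rank 2301. Replicate 1 alone therefore placed it among its 1065 highest regions and replicate 2 did not. The reverse held for ceh-20, the worm Pbx gene, whose product is a cofactor of Hox proteins. Its region on chrIII:6978808-6979263 lay outside coding genes, 848 bp upstream of the ceh-20 start, with a pooled signal of 74.3 and rank 1316. In replicate 1 the signal was 30.7 with rank 2225, and in replicate 2 it was 51.9 with rank 745. The other One cut gene of the leading group, ceh-39, known as an X-linked signal in sex determination, had a region on chrX:1856089-1856544, 145 bp upstream of its start. The pooled signal was 73.2 with rank 1376, and the ranks of 1625 in replicate 1 and 1392 in replicate 2 lay close together.

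The highest region inside a homeobox gene other than ceh-38 was that of ceh-18, a POU gene that acts in the gonadal sheath and restrains oocyte maturation. It lay in an intron on chrX:3853911-3854366, 1437 bp upstream of the nearest ceh-18 start and 84 bp from the start of the noncoding ZC64.5. Its pooled signal was 74.1 with rank 1330. With rank 1067 in replicate 1 and 1876 in replicate 2, it fell just short of the 1065 highest of replicate 1. Next came ceh-22, the NK-2 gene of pharyngeal muscle, with a summit in a coding exon 78 bp downstream of its start on chrV:10672484-10672939. The pooled signal there was 65.9, and ranks were 3260 in replicate 1 and 1316 in replicate 2. The region given to ceh-100 (signal 61.95, rank 1982) lay 103 bp from a start of its neighbour lips-15 and 809 bp upstream of ceh-100, so its gene is uncertain.

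The DNA at 3 summits is shown because these regions, among those whose printed stretch lies clear of any UTR, came nearest to the threshold. That of the strongest regions in Hox introns, mab-5 and nob-1, is shown because the Hox genes are described next. Each is 200 bases of the plus strand of ce11, around the summit: chrIII:6978936-6979135 for ceh-20, chrX:3854039-3854238 for ceh-18, chrX:1856217-1856416 for ceh-39, chrIII:7780866-7781065 for mab-5 and chrIII:12083583-12083782 for nob-1. Capitals mark GAGAGA on either strand, a word singled out after these sequences were seen.
ceh-20: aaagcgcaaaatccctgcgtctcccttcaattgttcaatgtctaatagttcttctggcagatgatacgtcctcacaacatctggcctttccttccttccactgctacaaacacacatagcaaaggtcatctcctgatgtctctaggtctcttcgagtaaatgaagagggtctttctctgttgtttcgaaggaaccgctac
ceh-18: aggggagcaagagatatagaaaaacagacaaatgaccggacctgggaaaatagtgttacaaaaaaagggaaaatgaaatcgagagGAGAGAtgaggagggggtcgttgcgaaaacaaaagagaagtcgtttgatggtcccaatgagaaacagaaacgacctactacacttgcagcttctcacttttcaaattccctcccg
ceh-39: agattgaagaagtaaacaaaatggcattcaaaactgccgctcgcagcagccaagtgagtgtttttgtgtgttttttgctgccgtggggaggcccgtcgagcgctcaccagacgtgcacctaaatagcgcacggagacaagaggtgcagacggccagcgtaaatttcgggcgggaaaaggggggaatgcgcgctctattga
mab-5: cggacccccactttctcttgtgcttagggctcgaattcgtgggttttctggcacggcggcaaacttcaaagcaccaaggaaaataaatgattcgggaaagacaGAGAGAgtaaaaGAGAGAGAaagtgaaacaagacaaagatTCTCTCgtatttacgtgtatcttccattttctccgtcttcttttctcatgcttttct
nob-1: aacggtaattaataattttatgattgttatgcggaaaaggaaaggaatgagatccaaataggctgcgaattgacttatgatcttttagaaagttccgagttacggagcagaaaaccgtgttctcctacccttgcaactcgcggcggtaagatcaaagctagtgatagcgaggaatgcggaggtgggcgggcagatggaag
The mab-5 and ceh-18 stretches carry the word and the other 3 do not. GAGAGA lay within 50 bp of the summit in 13 of 89 homeobox regions (14.6%, 8.74 to 23.4) and in 9.74% of the regions of all protein-coding genes that are not sites, counting summits in a window or gene. Among all pooled regions the share was 11.8%, and among the 1065 sites it was 27.9%. Of 48 homeobox regions in introns 10 held it (20.8%, 11.7 to 34.3), against 10.4% of all pooled regions in introns. Since the word was picked from homeobox sequences, these shares describe them and were not tested.

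All 6 Hox genes had a pooled region inside the gene, against 34.2% of protein-coding genes, and 4 of the 6 had one in the promoter window, against 36.5%. Hox genes have a median length of 4931.5 bp, against 2026 bp for all protein-coding genes. The genes lin-39, mab-5 and nob-1 are over 5000 bp, and 73.1% of all genes of that size had a region inside. The genes ceh-13, egl-5 and php-3 lie between 2000 and 5000 bp, where the share was 38.6%. The part of length in the Hox count was not tested. The 6 are ceh-13, the labial gene of the anterior body, lin-39, which acts in the midbody and the vulva, mab-5 of the posterior body, egl-5 of the tail region, and the paralogues nob-1 and php-3 of the posterior embryo. The strongest was mab-5, with an intronic summit 2488 bp downstream of its start, a pooled signal of 47.6 and rank 3605. The ranks were 2883 in replicate 1 and 9231 in replicate 2. A weaker intronic region of mab-5 (28.0) was called in replicate 1 only, and no region fell in the mab-5 window.

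At nob-1, 4 pooled regions were called and all 4 appeared in both replicates. The strongest lay in an intron 579 bp downstream of the nearest nob-1 start, with a pooled signal of 46.7, rank 3785, rank 5451 in replicate 1 and rank 5353 in replicate 2. The others had signals of 45.4, 40.9 and 39.02. The paralogue php-3, next to nob-1 on the same strand, had 1 intronic region, with a signal of 34.02 and rank 8546. That region was in both replicates, at ranks 9038 and 13276 of replicates 1 and 2. In this respect nob-1, php-3 and the stronger mab-5 region differ from the remaining Hox regions, of which none was in both replicates.

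The lin-39 window region lay 13 bp upstream of an internal start of lin-39, in an intron (chrIII:7534590-7535045). It had a pooled signal of 41.4, rank 5100 and rank 2149 in replicate 1, and no region of replicate 2 overlapped it. A second lin-39 region was called in replicate 2 only, at a signal of 26.5, and another in neither replicate, at 25.1. For ceh-13 the window region, 852 bp upstream, had a signal of 27.8 and the intronic one 22.6, both called in replicate 2 only. The egl-5 region, in a UTR 38 bp downstream of a start, was the weakest of all homeobox regions at 22.5, rank 21284, close to the lowest pooled signal of 22.2. It too was called in replicate 2 only. By strength the order was therefore mab-5, nob-1, lin-39, php-3, ceh-13 and egl-5, and with 1 pooled value per gene the neighbours in that order cannot be separated.

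Within 10 kb of the outermost start there were 4 pooled regions at ceh-13, 5 at egl-5, 6 at lin-39, 4 at mab-5 and 6 each at nob-1 and php-3. None was a site. The highest was 8782 bp upstream of lin-39, with a signal of 61.2 and rank 2039. It lay outside the lin-39 window and gene, and its nearest gene was not looked up, so its gene is uncertain. The neighbours nob-1 and php-3 share 5 of these regions.

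**Figure D2:**
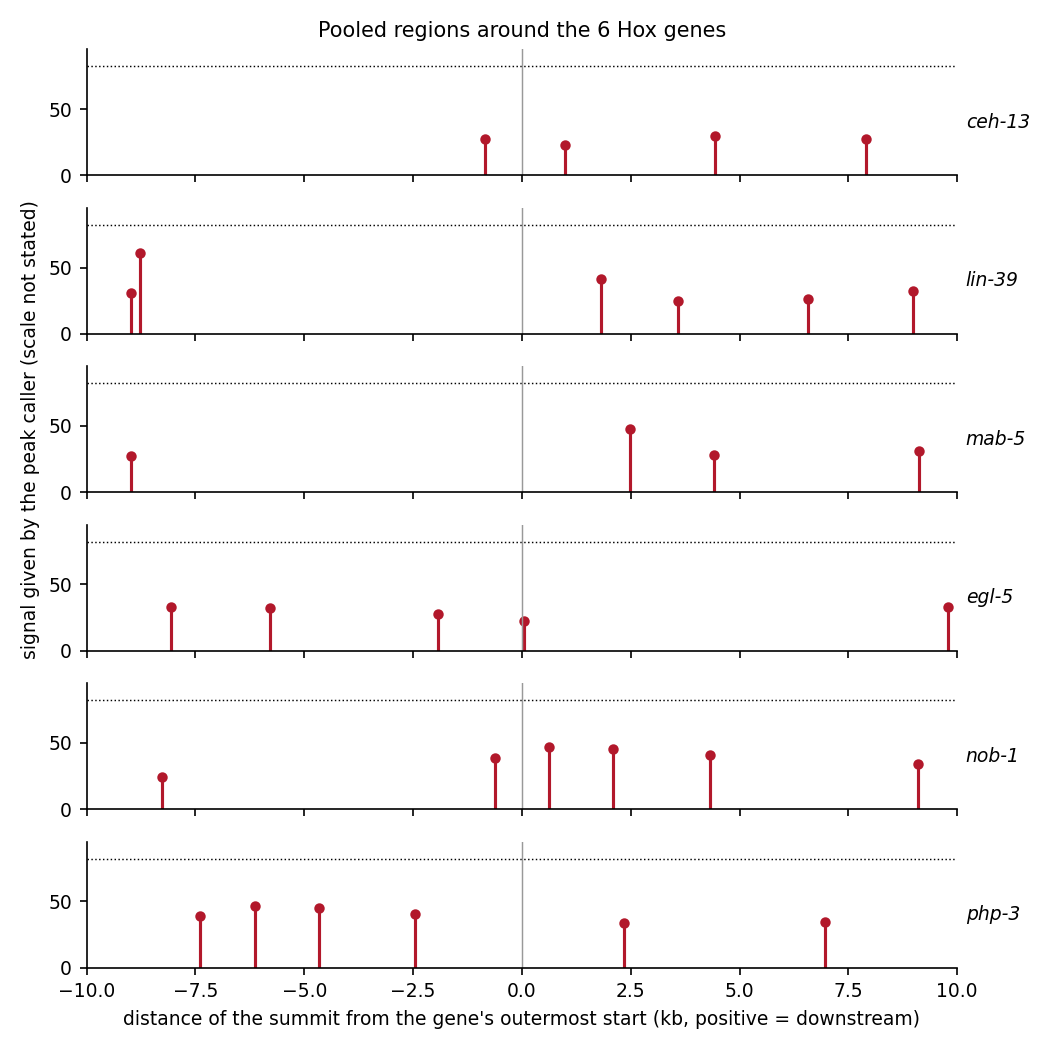
Pooled regions within 10 kb of the outermost start of the 6 Hox genes, by distance of the summit in kb (horizontal axis, positive downstream) and signal given by the peak caller (vertical axis, scale not stated). The dotted line is the lowest site signal, 82.13, and the highest region, 8782 bp upstream of lin-39, reaches 61.2.

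The LIM genes, which encode homeodomain proteins with zinc-binding LIM domains, had a region in the window or inside at 6 of 7 members, against 48.8% of protein-coding genes. Their median length is 4964 bp. Above 5000 bp, the size of lim-6, lim-7 and lin-11, 81.5% of all genes had one. Between 2000 and 5000 bp, the size of ceh-14, lim-4, mec-3 and ttx-3, the share was 53.5%. In ceh-14, an Lhx3-type gene of the thermosensory neuron AFD, a region in a UTR 4496 bp downstream of the start had a pooled signal of 56.9 and rank 2386. Its ranks were far apart, 13049 in replicate 1 and 1278 in replicate 2. The summit lay inside ceh-14, but the nearest coding start was that of F46C8.3, at 2665 bp, so its gene is uncertain. The Islet gene lim-7 had 4 regions, the strongest 16 bp upstream of a start with a signal of 46.8, rank 3765, and ranks 9268 and 3469 in replicates 1 and 2. The region of lim-6, the Lmx1-type gene, 38 bp upstream of a start (38.6), was called in replicate 2 only, as was that of ttx-3, the selector of the interneuron AIY (33.4, in a coding exon). The Lhx6-type gene lim-4 had 1 region, with a signal of 36.3, rank 5910 in replicate 1 and 5657 in replicate 2. The regions of lin-11, a founding member of the class, were intronic, the stronger at 33.6 in both replicates. The touch neuron gene mec-3 had no region in any list.

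Among the POU genes, unc-86, which specifies the touch neurons together with mec-3, had 1 window region at a signal of 23.5, rank 19498, called in replicate 2 only and 30 bp from the start of the noncoding C30A5.11. Besides its strongest region, ceh-18 had 4 others. A window region at 34.4 was called in replicate 2 only and lay 22 bp from the noncoding ZC64.8. The other 3 were intronic: one at 40.9 overlapped the strongest region and the same regions of both replicates, one at 31.0 was in replicate 2 only, and one at 29.1, also in the window, was in neither. The excretory cell gene ceh-6 had no pooled region, and its only call was in replicate 1, with a signal of 20.7 and rank 6823.

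In the paired-type class, 8 of 12 genes had a region in either place, against 48.8% of protein-coding genes, at a median length of 4150 bp. The Pax6 gene vab-3 had 9 pooled regions, more than any other of the 80 homeobox genes in the set. Their signals ran between 24.0 and 40.5, all in introns, and 3 lay in windows. The strongest, 331 bp upstream of an internal start, had ranks 8120 and 10767 in replicates 1 and 2. At unc-42, a selector of command interneurons, the region 46 bp upstream of a start had a signal of 43.7, with rank 13023 in replicate 1 and 1410 in replicate 2. For ceh-8, the Rax gene, the stronger region lay in a UTR (51.9, rank 2948), at ranks 3419 and 4856 in replicates 1 and 2. It lay 776 bp from a start of col-63, in whose window it falls, and 117 bp from the noncoding ZK265.11, so its gene is uncertain.

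Of the 18 other ANTP-class genes 11 had a region in either place, against 48.8% of protein-coding genes, the share beside which the counts of the smaller classes here also stand. The intronic one of ceh-9 reached 54.4, with rank 1237 in replicate 1 and 9341 in replicate 2. The region 11 bp upstream of ceh-27, an NK-2 type gene, had 46.9, with ranks 8482 and 4430. In the ceh-2 window, 820 bp upstream of this empty spiracles gene, the signal was 41.1, with rank 1962 in replicate 1 and 19209 in replicate 2. This summit lay 35 bp from the start of another gene that is not protein-coding, so its gene is uncertain. All 3 sine oculis-type genes of the set, ceh-32, ceh-33 and ceh-34, had a region, the best at rank 7498. Of the 3 TALE genes of the set, ceh-20 alone had one. In the CUT class 4 of 6 had one. Of the 22 genes not placed in a class 10 had one, among them ceh-88, ceh-81 and ceh-82. No class was tested against all genes. Homeobox genes outside the symbol rule were not placed in classes, so these class counts leave them out. The last pair shared its 2 regions, in coding exons of ceh-81 and in the ceh-82 window (52.4 and 39.3). At ceh-88 the region 199 bp downstream of the start, in a coding exon, had a pooled signal of 48.2 and rank 1056 in replicate 1. No region of replicate 2 overlapped it, although replicate 2 had a weaker one elsewhere inside ceh-88, at rank 14118.

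**Figure D3:**
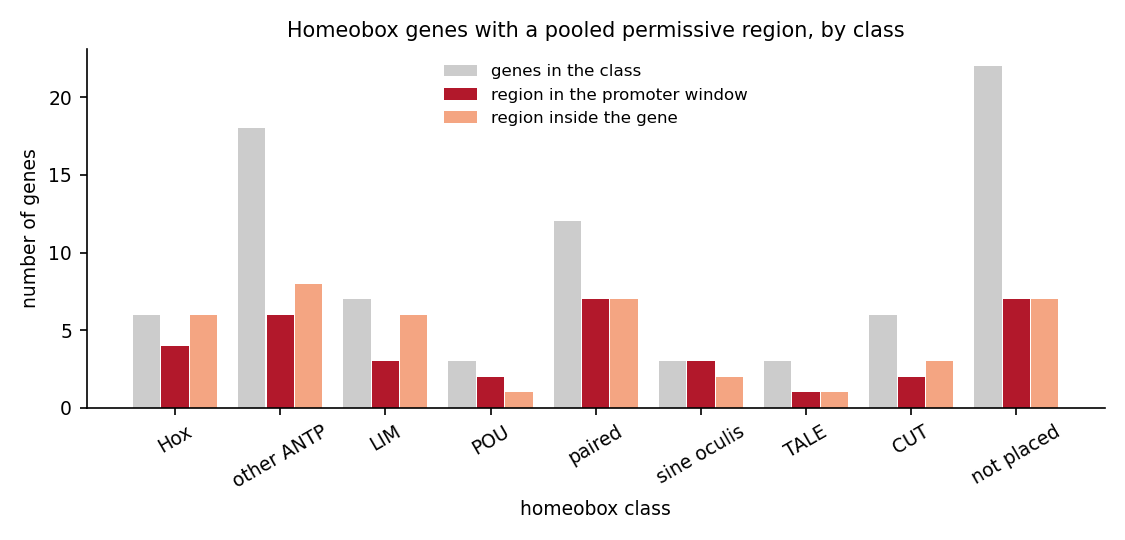
Number of homeobox genes (vertical axis) by class (horizontal axis): all genes of the class (grey), those with a pooled permissive region in the promoter window (red) and those with one inside the gene (orange). Homeobox genes outside the symbol rule are not included. All 6 Hox genes have a region inside the gene, and all 3 sine oculis-type genes of the set have one in the window.

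Across the set the replicates gave different orders. Regions of both replicates stood in 19 homeobox windows (23.8%), against 22.3% of protein-coding genes. Among the 1065 highest regions of replicate 1 there were 2 homeobox windows, ceh-38 and ceh-88 (2.5%), against 3.83% of protein-coding genes. Among those of replicate 2 there was 1, ceh-20 (1.25%), against 3.81% of protein-coding genes. No homeobox gene was in both of these lists. With lists of 2 genes and 1 gene, and no such share counted for all genes, this says little about how the replicates agree. Of the 89 pooled regions at homeobox genes, 38 overlapped a region of both replicates (42.7%), against 45.5% of the 16173 regions of protein-coding genes that are not sites. Replicate 1 alone held 15, replicate 2 alone 29, and neither 7. Over the 38 homeobox regions in both, the replicate signals had a Spearman's rho of 0.242, against 0.393 over 9512 pooled regions that are not sites. These describe regions of 1 experiment, not replicates.

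**Figure D4:**
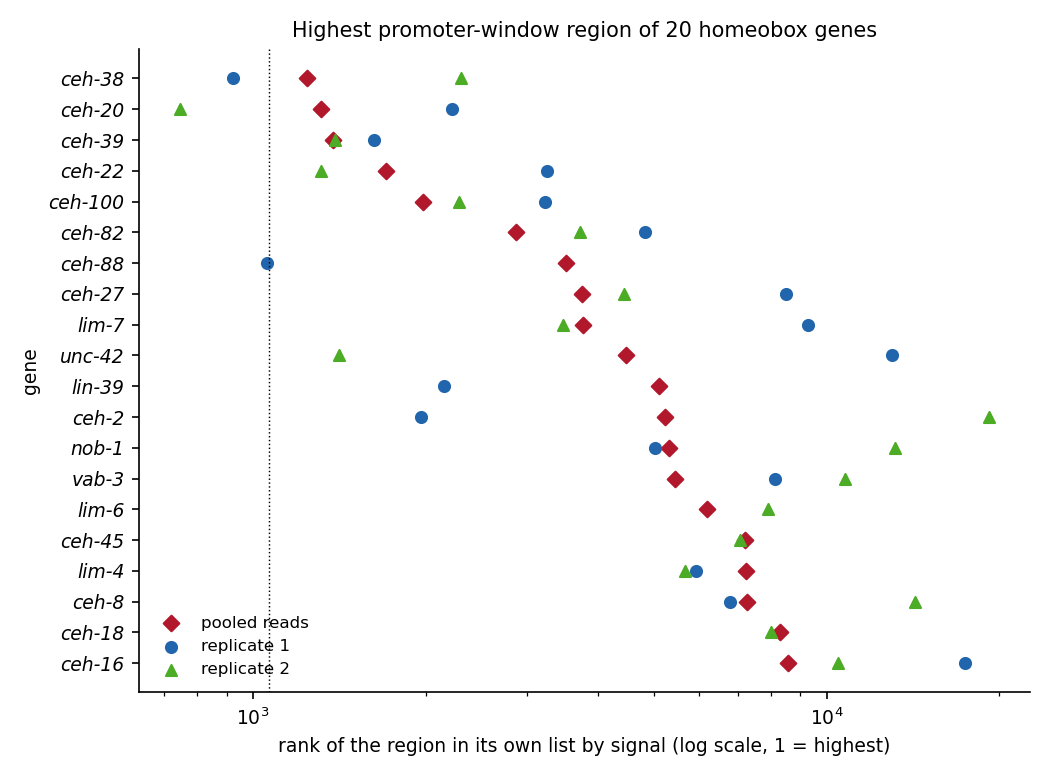
Rank by signal (horizontal axis, log scale, 1 is the highest) of the highest promoter-window region of 20 homeobox genes (vertical axis, ordered by pooled rank) in the pooled reads (diamonds), replicate 1 (circles) and replicate 2 (triangles). A missing symbol means that no region of that replicate overlapped, and the dotted line marks rank 1065. The symbols left of the line are ceh-38 and ceh-88 in replicate 1 and ceh-20 in replicate 2.

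The best window region lay upstream of the gene's own start in 28 of 35 homeobox genes (80%), against 75.2% of the 7293 protein-coding genes with one, and downstream in 7. The window reaches 1000 bp upstream and 500 bp downstream. The median distance was 264 bp in homeobox genes. Of the 89 regions, 48 had their summit in an intron (53.9%), against 41.1% of the regions of protein-coding genes that are not sites. Coding exons held 13 (14.6%), against 29.5%, UTRs 7 (7.87%), against 8.14%, and DNA outside coding genes 21 (23.6%), against 21.4%. The gene vab-3 alone supplied 9 of the intronic regions, and some regions overlap. The amount of intron and exon DNA in the 2 gene sets was not compared, and these differences were not tested. Among the sites 68.8% lay outside coding genes and 25.5% in introns. The median GC content within 50 bp of the summit was 43.6% for homeobox regions, 42.6% for the regions of protein-coding genes that are not sites, and 50.5% for sites.

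TGACCA, the word that mammalian BCL11A binds, was sought on both strands within 50 bp of the summits. It was present in 7 of 89 homeobox regions (7.87%, 3.86 to 15.4), against 3.57% of the regions of protein-coding genes that are not sites, 3.70% of all pooled regions and 3.76% of sites. The counts are small. The interval treats the 89 regions as independent, although some overlap and vab-3 alone holds 9, so it is too narrow to set against the other shares. The difference was not tested. The holders were regions of ceh-36, lim-7, vab-3, lin-39, ceh-30, vab-7 and egl-5. Of these, 5 ranked below 15000 in the pooled list, while those of ceh-36 and lim-7 had ranks 4383 and 5566.

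Of the 7 holders of TGACCA, 4 of the weaker ones are shown so that the word can be seen in place. The stretch at ceh-36, like that at egl-5, touches a UTR and is not printed, nor is that of lim-7. Each is 101 bases of the plus strand of ce11 centred on the summit: chrX:10505354-10505454 for vab-3, the Pax6 gene, chrIII:7530003-7530103 for lin-39, chrX:3063391-3063491 for ceh-30, a BarH gene, and chrIII:10923151-10923251 for vab-7, the even-skipped gene. Capitals mark TGACCA or its reverse complement.
vab-3: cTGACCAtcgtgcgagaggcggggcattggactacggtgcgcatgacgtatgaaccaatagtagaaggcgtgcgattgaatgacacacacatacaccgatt
lin-39: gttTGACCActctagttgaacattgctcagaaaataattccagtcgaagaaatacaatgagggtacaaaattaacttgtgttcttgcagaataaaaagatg
ceh-30: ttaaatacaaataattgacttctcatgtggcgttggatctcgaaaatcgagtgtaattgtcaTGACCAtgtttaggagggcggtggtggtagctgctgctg
vab-7: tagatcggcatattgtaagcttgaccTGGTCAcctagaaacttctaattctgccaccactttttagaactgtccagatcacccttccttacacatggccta
The word lies near the left edge in vab-3 and lin-39, right of the summit in ceh-30 and left of it in vab-7. The first, the second and the last are intronic, and the ceh-30 region lies 133 bp upstream of its start. None of these 4 regions was called in replicate 1, and all 4 were called in replicate 2.

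Nearly all sites around homeobox genes lay nearest to the start of another gene. A site lay within 10 kb of a start for 11 homeobox genes (13.8%), against 18.2% of protein-coding genes, and the median distance to the nearest site was 34413 bp for homeobox genes and 38765 bp for all protein-coding genes. The closest was 2625 bp upstream of ceh-39, with T26C11.8 as its nearest coding gene. Those of ceh-24 and ceh-5, at 4555 and 4943 bp, were nearest to swan-1 and eat-16. A single site, 0.0939% of the 1065, had a homeobox gene as its nearest coding gene, while homeobox genes make up 0.400% of coding genes. This gene was ceh-43, the Distal-less gene, named here after its values were seen. The site (chrIII:4456589-4457044) lay outside coding genes, 6874 bp upstream of ceh-43 and 1293 bp from the noncoding F56F3.7, with a signal of 88.4 and rank 921. It ranked 580 in replicate 1 and 2607 in replicate 2. An intronic region of ceh-43 had a signal of 45.2, rank 4114, below the threshold.

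No region of any list, replicates included, was found at 14 homeobox genes (17.5%), against 35.9% of protein-coding genes. In alphabetical order the first 10 were ceh-17, ceh-19, ceh-28, ceh-40, ceh-41, ceh-51, ceh-60, ceh-63, ceh-7 and ceh-75. The touch neuron gene mec-3 and unc-4, which sets motor neuron synaptic choice, were also among the 14. Since regions inside the gene are counted, the share depends on length, with medians of 3277 bp for homeobox genes and 2026 bp for all. The part of length was not tested.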

How the data were processed

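Chromatin immunoprecipitation with an antibody against GFP was followed by sequencing in 2 biological replicates of 1 group, per the labels. The deposited ce11 lists give each enriched region a signal, a score from the authors' peak caller whose scale is not stated. Pooled and per-replicate lists are permissive, and the thresholded list holds the pooled regions that passed a limit on the irreproducible discovery rate, per the submitters' file lists. The aligner, the peak caller, that limit and the depth were not given in the sources used here. The ce10 lists, control libraries and signal tracks were not used here.

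Summits were assigned to genes of Ensembl release 115 (WBcel235), with coordinates written from 1. A replicate was counted as holding a pooled region when a region of its own list overlapped it by at least 1 bp. Shares have 95% Wilson intervals and medians 95% order-statistic intervals. No test was made, since there is 1 group and the members and lists were chosen with earlier results of these data known. Genes named are the 15 highest by window signal, the 10 highest by signal inside the gene, those in a replicate's 1065 highest regions, the Hox, LIM and POU genes, and up to 10 without a region. The rule also named every homeobox gene with a site, of which there was none. Other genes were named after their values were seen. Third-helix signatures came from coding sequences translated from the RefSeq genome, which also gave the printed DNA.

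Calculations ran in Python 3.11.15 (scipy 1.17.1, pandas 2.3.3, numpy 2.4.6) and plots in matplotlib 3.10.9. The assignment of summits was tested on simulated data: 200 of 200 planted genes were recovered, and 0 genes differed from a direct search. Alternatives were the window length, overlap in place of summits, stricter and laxer thresholds, and each replicate alone.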

Additional observations from a re-analysis of the deposited data

How the results depend on the processing

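Taking 2130 pooled regions, 2 times the number of sites, put 5 homeobox genes past the threshold in the window and 3 inside the gene, against 0 of each. Taking the 1065 highest regions of 1 replicate gave between 1 and 2 homeobox genes in the window and between 0 and 2 inside the gene, the lower values without replicate 1 and the higher ones without replicate 2. Using only the stronger 10912 pooled regions left 23 of the 35 homeobox genes with a window region and 27 of the 41 with one inside. The first and the last of these settings change the number of regions counted by their construction. The single-replicate setting keeps that number, and the cause of its difference was not tested. The other alternatives, 20 of 27, moved no count by over 1.5 times: windows of 500 or 2000 bp and overlap in place of the summit kept 0 homeobox genes with a site in the window, and the permissive lists of single replicates gave 31 to 36 in the window and 37 to 46 inside. Overlap for the counts over replicates was chosen after seeing the data. No paired analysis was possible because there is 1 group. Depth is unknown, so what a deeper library would call cannot be said.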

Other observations

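Of the 21 homeobox genes outside the symbol rule, 16 had a pooled permissive region inside the gene (76.2%), against 34.2% of protein-coding genes, and 10 in the promoter window (47.6%), against 36.5%. Their median length is 4175 bp, against 2026 bp for all protein-coding genes, and the part of length was not tested. The highest was inside zfh-2, the zinc finger homeobox gene, at a signal of 63.7 and rank 1865. Next came dve-1, the SATB-type gene of the mitochondrial stress response, at 58.6 and rank 2234. The Meis gene unc-62, whose product is a Hox cofactor like that of ceh-20, followed at 58.5 and rank 2241. Regions inside the gene numbered 21 at zfh-2 and 11 at unc-62. By chromosome, a region lay inside 6 of 10 homeobox genes on I, against 43.8% of all protein-coding genes there, and inside 4 of 14 on II, against 33.1%. It lay inside 13 of 15 on III, against 42.6%, and inside 3 of 6 on IV, against 33.01%. On V it was 6 of 13, against 24.5%, and on X 9 of 22, against 36.6%. The 15 on III include the 6 Hox genes, which all had a region inside. Gene length was not compared between chromosomes, and these shares were not tested. The genes zfh-2, dve-1 and unc-62 were named after their values were seen.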
